A study of Mus musculus with 13 samples.

Results

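The effect of losing the mineralocorticoid receptor from smooth muscle, averaged over young and aged aorta, was measured across all genes on 13 of the 13 arrays of the series. The average is the mean of 2 differences, MR-knockout minus wildtype within young aorta and MR-knockout minus wildtype within aged aorta, so that each age has equal weight. It sets 6 MR-knockout arrays (3 young, 3 aged) against 7 wildtype arrays (3 young, 4 aged). All mice were male C57BL/6. The young groups were aged 3 to 4 months, and the aged groups 12 months. The design text calls the knockout mice SMC-MR-KO and their controls MR-intact, and the genotype labels of single arrays read MR-knockout and wildtype. No treatment is named for any group. The sources used here do not give the Cre line, the deleted exons or whether controls carry floxed alleles. Whole aorta was used, so cells other than smooth muscle keep their receptor and add their own RNA. The study asked how the smooth muscle receptor bears on vascular RNA as mice age, and the averaged contrast asks which RNAs differ between genotypes whatever the age.

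The mineralocorticoid receptor is the nuclear receptor for aldosterone. It also binds glucocorticoids, enters the nucleus with its hormone and acts on genes near hormone response elements, whose half-sites it shares with the glucocorticoid receptor. In kidney it controls sodium retention, and in the arterial wall it is known for roles in vascular tone, stiffness, fibrosis and inflammation.

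Array medians lay between 5.85 and 5.97 on the log2 scale of the deposited values. The median gene SD was 0.096 in young MR-knockout, 0.09 in young wildtype, 0.148 in aged MR-knockout and 0.114 in aged wildtype arrays, so the aged MR-knockout group was the loosest. Smooth muscle markers (8 genes) averaged 9.93 to 10.87, above the median of every array, as the tissue label would have it. They averaged 10.57, 9.93 and 10.47 on the aged MR-knockout arrays, against 10.48 to 10.87 on the aged wildtype arrays. Markers of B lymphocytes and plasma cells (8 genes) averaged 9.25, 7.43 and 7.43 on the aged MR-knockout arrays, against 5.70 to 6.12 on the aged wildtype arrays. On the young arrays the same list averaged 5.48, 5.45 and 6.97 in MR-knockout, against 5.35 to 5.98 in wildtype. Aged MR-knockout arrays 1 and 2 and young MR-knockout array 3 also held the highest T lymphocyte means of their ages (7.37, 6.70 and 6.07). The immune results below are also given without these 3 arrays. Aged MR-knockout array 3 stays in that setting with a B cell mean of 7.43, as high as array 2, so B cell signal remains. Some results are also given with the B cell marker mean as covariate. In aged aorta that mean does not overlap between genotypes, so such a fit cannot separate it from the genotype difference. Liver markers reached 6.84 on aged MR-knockout array 2, against 4.00 to 5.31 on aged wildtype arrays. Striated muscle markers differed among arrays of 1 group, with skeletal muscle means of 5.63 to 7.50 in young MR-knockout and 5.25 to 7.88 in young wildtype aorta. Whether each array stands for its own mouse is not stated in the labels, so the p-values cover only array-to-array spread, part or all of which may be technical.

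No gene passed the test of the averaged effect. With limma, 0 of 21225 features (0%) had a Benjamini-Hochberg adjusted p under 0.05, and the smallest adjusted p was 0.0819. At an unadjusted p under 0.05 there were 2315 features (10.9%), of which 1442 read higher in MR-knockout aorta (6.79% of all) and 873 lower (4.11% of all). The median averaged difference over all features was 0.01 (log2), and the median 95% interval reached 0.16 to either side of the estimate. An averaged difference above 1 on the log2 scale was measured for 75 features and one below -1 for 1 feature, Ube2ql1. The count depended on 1 array: without aged MR-knockout replicate 3, a total of 292 features passed, 253 higher and 39 lower. Because nothing passed with all arrays, every gene below is described by its values, ranked by p, and none is called changed by the knockout.

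Nr3c2 (Entrez 110784), which encodes the deleted receptor, was lower on every knockout array than on any wildtype array of the same age. Its log2 levels were 6.26, 6.09 and 6.42 in young MR-knockout aorta, against 6.68, 6.62 and 6.69 in young wildtype aorta. They were 6.14, 6.22 and 6.58 in aged MR-knockout aorta, against 7.12, 6.86, 6.80 and 7.24 in aged wildtype aorta. The averaged difference was -0.55 (SE 0.09, 95% interval -0.75 to -0.34), or 1.46-fold lower. Over 700 exact regroupings of genotype within age the two-sided permutation p was 0.00143, the smallest these can give, while the adjusted p over all features was 0.175. The differences at each age were -0.40 in young and -0.69 in aged aorta. The deposited value joins all probes of the gene, so it does not separate the deleted part of the transcript from the rest. In bulk RNA a lower level in all cells and a loss from some cells cannot be told apart.

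**Figure D1:**
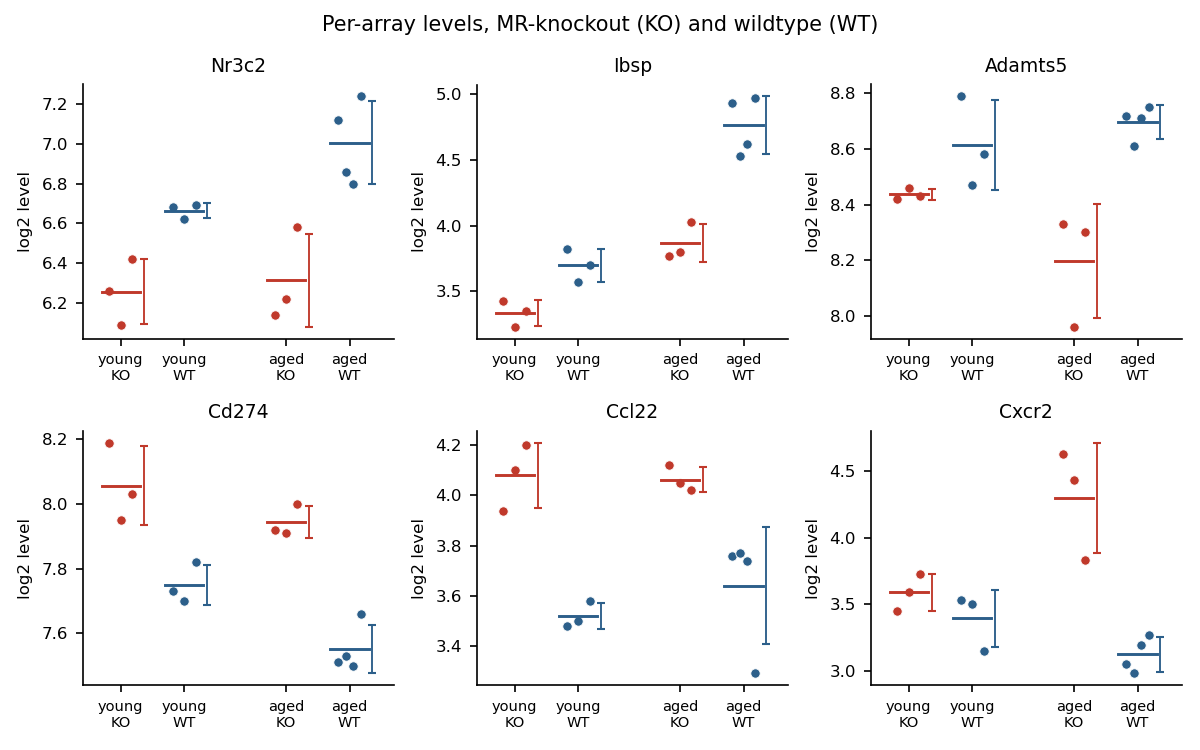
Log2 level on each array for 3 genes lower and 3 genes higher in MR-knockout aorta; points are arrays, horizontal lines group means and vertical bars 1 SD (n = 3, 3, 3 and 4). For Nr3c2, Ibsp, Adamts5, Cd274 and Ccl22 the knockout and wildtype points do not overlap at either age, while Cxcr2 overlaps in young aorta.

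The glucocorticoid receptor and the enzymes that set hormone access did not show a like difference. Nr3c1, the glucocorticoid receptor, lay between 8.94 and 9.07 on the 6 MR-knockout arrays and between 8.86 and 9.09 on the 7 wildtype arrays, with an averaged difference of 0.03 (95% interval -0.07 to 0.13). Hsd11b2, which inactivates glucocorticoids in aldosterone target cells, differed by 0.01 (95% interval -0.16 to 0.18). Both of these small differences changed sign under some other settings. Of 13 measured corticosteroid receptors, co-regulators and enzymes, Nr3c2 alone had an unadjusted p under 0.05.

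Genes that corticosteroid receptors induce in other tissues leaned lower in the average, more so in young than in aged aorta. Of 31 measured response genes, 22 read lower and 9 higher. Unadjusted p-values under 0.05 were found for 5, all lower, beside 4.11% of all features. The list median was -0.08, against 0.01 over all features, with -0.14 in young and 0.00 in aged aorta. Fam107a, an actin-binding protein induced by glucocorticoids, had 7.32, 7.67 and 7.21 in young MR-knockout aorta, against 7.68, 7.84 and 7.60 in young wildtype aorta. In aged aorta it had 7.08, 7.53 and 7.39 with the knockout, against 8.31, 7.90, 8.04 and 8.06 in wildtype. The genotypes were apart in aged aorta and overlapped in young aorta, and the averaged difference was -0.52 (SE 0.10, adjusted p = 0.245). Klf9, a transcriptional repressor, differed by -0.16 (SE 0.05, adjusted p = 0.371) and Per1, a clock repressor, by -0.39 (SE 0.15, adjusted p = 0.395).

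Well known induced genes of the family had intervals that included 0. Sgk1, the kinase that carries aldosterone's action on sodium channels, differed by -0.11 (95% interval -0.31 to 0.09). Tsc22d3, which encodes GILZ, differed by -0.10 (95% interval -0.43 to 0.24), a sign that turned in 2 of 25 other settings. Fkbp5, a receptor co-chaperone, differed by -0.27 (95% interval -0.69 to 0.15). Aged MR-knockout array 2 stood apart here, with Tsc22d3 at 8.69, against 7.62 and 7.69 on the other aged MR-knockout arrays and 7.69 to 7.91 in aged wildtype. The mean of the 31 response genes was also highest among aged arrays there, at 8.17, against 7.85 and 7.91 on the other aged knockout arrays and 7.96 to 8.10 in aged wildtype. Without that array the list median was -0.12 and 7 genes were lower at an unadjusted p under 0.05, beside 3.01% of all features. Without aged MR-knockout array 1 the median was -0.06 with 4 genes lower, beside 5.58% of all features. With the B cell marker mean as covariate the median was -0.01. In that fit 17 genes read lower and 14 higher, so little of the lean was left. Of the 31, 3 were lower at an unadjusted p under 0.05 (9.68%, beside 5.77% of all features). That mean differs between genotypes in aged aorta, so the fit does not say what part it has in the lean.

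Promoter sequence is printed for the deleted gene, the response gene with the smallest p and 2 genes higher at both ages, to show whether letters of a corticosteroid half-site lie close to their starts. Each line holds the 250 bases before the gene start, from RefSeq on GRCm38.p6, 5′ to 3′ on the gene's strand, with TGTTCT and its reverse complement AGAACA in capitals.
Nr3c2, chr8:76902080-76902329, plus strand: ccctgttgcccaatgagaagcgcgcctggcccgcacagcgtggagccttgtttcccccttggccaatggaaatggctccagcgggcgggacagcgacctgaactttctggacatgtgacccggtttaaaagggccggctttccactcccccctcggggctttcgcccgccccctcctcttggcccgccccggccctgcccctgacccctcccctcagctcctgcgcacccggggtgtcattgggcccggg
Fam107a, chr14:8309780-8310029, minus strand: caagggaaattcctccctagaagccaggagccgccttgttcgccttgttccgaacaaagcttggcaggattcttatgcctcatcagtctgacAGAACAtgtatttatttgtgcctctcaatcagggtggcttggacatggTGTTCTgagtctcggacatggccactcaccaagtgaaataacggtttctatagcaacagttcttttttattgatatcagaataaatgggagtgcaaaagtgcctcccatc
Cd274, chr19:29367188-29367437, plus strand: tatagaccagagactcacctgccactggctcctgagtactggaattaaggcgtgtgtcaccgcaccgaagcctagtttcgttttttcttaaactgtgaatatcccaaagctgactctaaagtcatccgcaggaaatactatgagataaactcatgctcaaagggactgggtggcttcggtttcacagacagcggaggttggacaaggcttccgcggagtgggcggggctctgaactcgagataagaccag
Ccl22, chr8:94745434-94745683, plus strand: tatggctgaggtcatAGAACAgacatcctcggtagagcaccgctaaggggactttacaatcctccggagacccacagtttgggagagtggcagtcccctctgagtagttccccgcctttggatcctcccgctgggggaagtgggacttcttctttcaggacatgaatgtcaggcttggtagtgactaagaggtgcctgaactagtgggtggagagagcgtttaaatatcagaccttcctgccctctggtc
The Fam107a start shown is 1 of 3 RefSeq entries, and one with half-sites is shown. Its window held 2, as did an entry that starts 2 bases away, and the window of the other entry held 0. The Ccl22 window held 1 half-site and the Nr3c2 and Cd274 windows 0. Of 32851 promoter entries, 16.1% held at least 1 half-site on either strand in the same length, and 0.00913% held the joined element, AGAACA and TGTTCT with any 3 bases between them, which reads the same on both strands and contains both half-sites. These letters are a description of the windows, and binding was not measured.

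Among the 12 genes with the smallest p that read lower in MR-knockout aorta were a mineral matrix protein, a vasoconstrictor receptor and 2 matrix proteases. They included Ube2ql1, Ibsp, Capn13, Nr3c2, Fam107a, Npy1r, Mmp16, Adamts5, Slc1a4, Fibin and Med10, with averaged differences of -1.12 to -0.28 and adjusted p of 0.0819 to 0.325. Of the genes named, Nr3c2, Ibsp and Adamts5 did not overlap between genotypes at either age. Ibsp and Capn13 lay below the array medians (5.85 to 5.97) on every array, and a filter on dim features left them out.

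Ibsp (Entrez 15891), bone sialoprotein of mineralising matrix, was apart at both ages. It read 3.43, 3.23 and 3.35 in young MR-knockout aorta, against 3.82, 3.57 and 3.70 in young wildtype aorta, and 3.77, 3.80 and 4.03 in aged MR-knockout aorta, against 4.93, 4.53, 4.62 and 4.97 in aged wildtype aorta. The averaged difference was -0.63 (SE 0.09, adjusted p = 0.0819). Its aged difference of -0.90 passed the test in aged aorta (adjusted p = 0.0204). Fitted on the 7 aged arrays alone, 0 features passed, this gene included. Among 25 osteochondrogenic genes 5 were lower and 0 higher at an unadjusted p under 0.05, beside 4.11% and 6.79% of all features; after Ibsp came Tnfrsf11b, the RANKL decoy receptor osteoprotegerin (-0.32), Acan, the cartilage proteoglycan aggrecan (-0.56), and Dlx5, a homeobox factor of bone (-0.30). The last 3 of these had young differences of 0.05, 0.00 and -0.04, so their averages rest on aged aorta.

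Npy1r (Entrez 18166), the Y1 receptor through which neuropeptide Y constricts arteries, was 7.37, 7.91 and 7.41 in young MR-knockout aorta, against 8.13, 8.01 and 7.83 in young wildtype aorta. It was 7.58, 7.15 and 7.69 in aged MR-knockout aorta, against 8.65, 7.99, 8.51 and 8.60 in aged wildtype aorta. Young MR-knockout array 2 reached into the wildtype range, and the averaged difference was -0.70 (SE 0.13, adjusted p = 0.268).

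Htr1b, a serotonin receptor that constricts vessels, was apart at both ages: 7.93, 8.35 and 8.08 in young MR-knockout against 8.46, 8.51 and 8.37 in young wildtype, and 7.57, 7.18 and 7.53 in aged MR-knockout against 8.22, 7.64, 7.97 and 8.16 in aged wildtype aorta. Its averaged difference was -0.45 (SE 0.11, adjusted p = 0.325). Of 41 vasoactive receptors, 4 were lower and 1 higher at an unadjusted p under 0.05 (background 4.11% and 6.79%), and the list median was 0.02. The other lower ones were the prostaglandin F receptor Ptgfr (-0.19) and the nucleotide receptor P2ry2 (-0.39). Agtr1a, the main angiotensin II receptor of vessels, differed by -0.10 (95% interval -0.24 to 0.05), and Cacna1c, the pore subunit of the L-type calcium channel, by -0.19 (95% interval -0.43 to 0.06). Ace, which makes angiotensin II, differed by -0.34 (SE 0.10, adjusted p = 0.334), with -0.12 in young and -0.56 in aged aorta.

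Adamts5 (Entrez 23794), which cleaves versican and aggrecan, read 8.42, 8.46 and 8.43 in young MR-knockout aorta, against 8.79, 8.47 and 8.58 in young wildtype aorta, and 8.33, 7.96 and 8.30 in aged MR-knockout aorta, against 8.72, 8.61, 8.71 and 8.75 in aged wildtype aorta. In young aorta the nearest arrays of the 2 genotypes were 8.46 and 8.47, so the separation there is narrow, and the averaged difference was -0.34 (SE 0.07, adjusted p = 0.325). Mmp16, a membrane-type metalloprotease, differed by -0.33 (SE 0.07, adjusted p = 0.325), with -0.09 in young and -0.57 in aged aorta. Fibin, a secreted protein first described in the zebrafish fin bud, differed by -0.55 (SE 0.12) and Med10, a subunit of the Mediator complex, by -0.53 (SE 0.11), both with an adjusted p of 0.325.

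The 12 genes with the smallest p that read higher in MR-knockout aorta included receptors, ligands and antibody segments of immune cells. They were Cd274, Igkv4-69, Ccl22, Cxcr2, Pramel19, Igkv6-13, Kynu, Il21r, Slc39a4, Dppa3, H2-Oa and a further immunoglobulin kappa variable segment (Entrez 545847). Their averaged differences lay between 0.28 and 1.88 and their adjusted p between 0.111 and 0.325. Cd274, Ccl22, Il21r and Slc39a4 did not overlap between genotypes at either age. Ccl22, Cxcr2, Pramel19, Slc39a4 and Dppa3 lay below the array medians (5.85 to 5.97) on every array. A filter on dim features left out these genes except Slc39a4, and also Kynu and the kappa segments.

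Cd274 (Entrez 60533), which encodes the T cell inhibitory ligand PD-L1, differed by nearly the same amount at both ages. It read 8.19, 7.95 and 8.03 in young MR-knockout aorta, against 7.73, 7.70 and 7.82 in young wildtype aorta, and 7.92, 7.91 and 8.0 in aged MR-knockout aorta, against 7.51, 7.53, 7.50 and 7.66 in aged wildtype aorta. The differences were 0.31 in young and 0.40 in aged aorta, with an average of 0.35 (SE 0.05, 95% interval 0.24 to 0.47, adjusted p = 0.111). Its highest arrays were not those with the most B cell signal. The average was 0.38 without aged MR-knockout arrays 1 and 2 and 0.39 with the B cell marker mean as covariate. The aged MR-knockout array kept in the first setting has a B cell marker mean of 7.43. In aged aorta the covariate does not overlap between genotypes. Neither setting therefore separates B cell signal from the genotype difference.

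Ccl22 (Entrez 20299), a chemokine that draws T cells bearing CCR4, had 3.94, 4.10 and 4.20 in young MR-knockout aorta, against 3.48, 3.50 and 3.58 in young wildtype aorta. In aged aorta it had 4.12, 4.05 and 4.02 with the knockout, against 3.76, 3.77, 3.74 and 3.29 in wildtype. The groups did not overlap, with differences of 0.56 in young and 0.42 in aged aorta, and an average of 0.49 (SE 0.08, adjusted p = 0.126). With the B lymphocyte covariate the average was 0.43. The levels of Ccl22 lay below the median of every array.

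Il21r (Entrez 60504), the interleukin 21 receptor of lymphocytes, was 5.06, 5.09 and 5.66 in young MR-knockout aorta, against 5.01, 4.82 and 4.68 in young wildtype aorta, and 7.09, 6.09 and 5.85 in aged MR-knockout aorta, against 5.11, 4.96, 5.14 and 4.91 in aged wildtype aorta. Its highest arrays at each age were those with the most B cell marker signal, and the average of 0.87 (SE 0.18, adjusted p = 0.325) became 0.29 with that signal as a covariate, 0.63 without aged MR-knockout arrays 1 and 2, and 0.53 without young MR-knockout array 3 too. Kynu, kynureninase of tryptophan breakdown, followed the same arrays, with an average of 1.04 (SE 0.20, adjusted p = 0.268) and 0.36 with the covariate. H2-Oa, part of the class II peptide-loading regulator of B cells, had an average of 0.95 (SE 0.20, adjusted p = 0.325) and 0.40 with the covariate.

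Immunoglobulin kappa variable segments were the largest averages of the 12, and they rest mainly on aged aorta. Igkv4-69 (Entrez 628541) read 1.79, 2.52 and 3.34 in young MR-knockout aorta, against 2.95, 2.21 and 1.93 in young wildtype aorta, and 6.27, 4.97 and 5.72 in aged MR-knockout aorta, against 2.49, 1.95, 2.54 and 2.41 in aged wildtype aorta. Its young groups overlapped, its aged groups were far apart, and the average of 1.74 (SE 0.27, adjusted p = 0.111) joins 0.18 in young and 3.30 in aged aorta. Igkv6-13 averaged 1.23 (SE 0.22, adjusted p = 0.19) and the segment with Entrez 545847 averaged 1.88 (SE 0.40, adjusted p = 0.325). The latter joins 1.19 in young and 2.58 in aged aorta. Its young MR-knockout arrays read 2.51, 3.74 and 5.77, against 2.57 to 2.99 in young wildtype, so array 3 carried most of the young difference. With the B lymphocyte covariate these 3 segments read 1.0, 0.84 and 0.91. Without the 3 arrays with high T lymphocyte markers they read 1.58, 0.70 and 1.24. The aged MR-knockout array kept in that setting has a B cell marker mean of 7.43. Variable segments resemble each other, so probes of one may read another.

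Cxcr2 (Entrez 12765), the receptor that guides neutrophils to CXC chemokines, had 3.45, 3.59 and 3.73 in young MR-knockout aorta, against 3.53, 3.50 and 3.15 in young wildtype aorta, and 4.63, 4.43 and 3.83 in aged MR-knockout aorta, against 3.05, 2.98, 3.19 and 3.27 in aged wildtype aorta. The average was 0.68 (SE 0.12, adjusted p = 0.19), and 0.40 with the B lymphocyte covariate. Slc39a4, a zinc importer, differed by 0.28 (SE 0.06) and Dppa3, a factor of oocytes and early embryos, by 0.68 (SE 0.14), both with an adjusted p of 0.325, and Pramel19, of the PRAME family, by 0.45 (SE 0.08, adjusted p = 0.19). With the B lymphocyte covariate these 3 read 0.32, 0.71 and 0.43, so their averages were as large with it or nearly so.

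**Figure D2:**
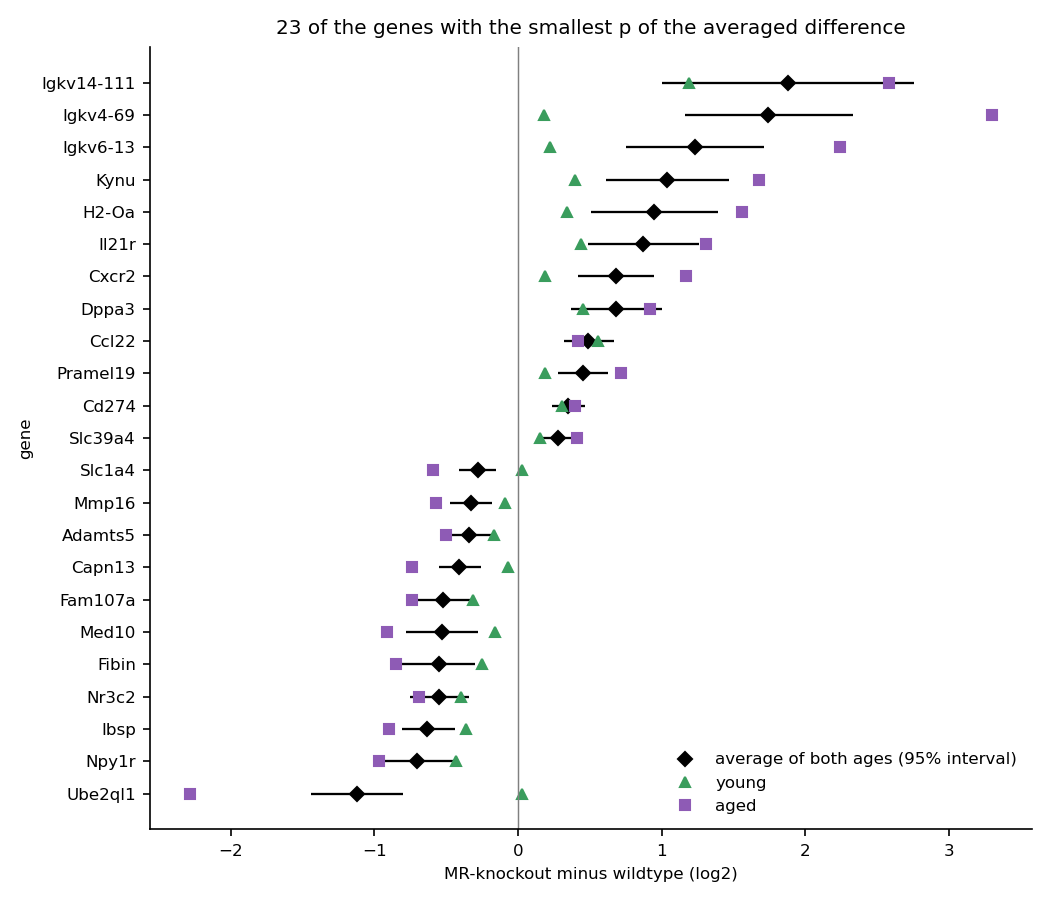
MR-knockout minus wildtype difference (log2) of 23 of the 24 genes with the smallest p; diamonds are the average of both ages with its 95% interval, triangles young and squares aged aorta. In 22 of these 23 the aged difference is the larger in size, Ccl22 being the other, and Ube2ql1 and Slc1a4 have young differences of 0.03.

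Requiring that no knockout array overlap a wildtype array at either age, in 1 direction, left 118 features (0.556%), 73 higher (0.344%) and 45 lower (0.212%). Within young aorta alone 5.43% of features were separated and higher and 4.06% separated and lower, and within aged aorta alone 5.25% and 5.11%. With shares of this size at each age, features separated at both ages also arise by chance. How many of the 118 do so, in either direction, was not tested. Of the 10 higher ones with the widest gap at the age where they lay closest, several are known from lymphocytes and dendritic cells. The 10 were Ccl22, Ccl5, Art2a, Dsc3, Cd274, Irf8, Cd300c2, H2-Eb2, Fscn1 and Cst7. Ccl5, a chemokine of T cells, read 6.74, 6.70 and 8.53 in young MR-knockout aorta, against 6.45, 6.52 and 6.51 in young wildtype aorta, and 9.36, 8.15 and 7.69 in aged MR-knockout aorta, against 7.31, 6.24, 6.53 and 6.46 in aged wildtype aorta. Irf8, a transcription factor of dendritic and B cells, read 5.80, 5.65 and 6.26 in young MR-knockout against 5.53, 5.54 and 5.42 in young wildtype aorta, and 8.11, 6.94 and 6.37 in aged MR-knockout against 5.76, 5.63, 5.70 and 5.62 in aged wildtype aorta. In both genes the arrays with the most lymphocyte marker signal were the highest of their age. Ccl5 averaged 1.30 with all arrays, 0.64 without the 3 arrays with high T lymphocyte markers and 0.20 with the B lymphocyte covariate. Irf8 averaged 0.94, 0.46 and 0.25 in the same settings. The aged MR-knockout array kept in the setting without the 3 arrays has a B cell marker mean of 7.43. Art2a, a T cell ADP-ribosyltransferase, averaged 0.38 with 0.32 in young and 0.43 in aged aorta.

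The 10 lower ones by the same measure included Nr3c2, Ncs1, Ibsp, Sec16b, Slc8a2, Glt28d2, Pla2g5, Tacc2 and Tada2a. Ncs1, a neuronal calcium sensor, read 6.84, 6.92 and 6.93 in young MR-knockout aorta, against 7.08, 7.14 and 7.08 in young wildtype aorta, and 6.68, 6.22 and 6.73 in aged MR-knockout aorta, against 7.43, 7.0, 7.07 and 7.43 in aged wildtype aorta. Its averaged difference was -0.45 (SE 0.10, adjusted p = 0.325). Slc8a2, a sodium-calcium exchanger, averaged -0.34 (SE 0.10), and Pla2g5, a secreted phospholipase, -0.27 (SE 0.10). Tada2a, an adaptor of histone acetyltransferase complexes, had a nearly even difference, with -0.15 in young and -0.16 in aged aorta.

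The average joined a small young and a larger aged difference. Across all 21225 features the knockout differences had an SD of 0.128 in young and 0.285 in aged aorta, and the 2 ages share no arrays. The differences correlated across genes with a Pearson r of 0.21 and a Spearman rho of 0.14, which describes genes that are not independent, and 55.3% of features had the same sign at both ages. Genes higher in young knockout aorta at an unadjusted p under 0.05 (373, or 1.76% of all features) were higher in aged knockout aorta in 68.6% of cases. Genes lower in young knockout aorta (176, or 0.829%) were lower in aged knockout aorta in 46.0%. Starting from aged aorta, the 1821 higher features (8.58%) had the same sign in young aorta in 66.9% and the 1923 lower features (9.06%) in 45.8%. The shares for higher genes were above the 55.3% of all features and those for lower genes below it. That 55.3% pools both directions and is not a base share for either. The median difference over all features was above 0 at both ages (0.0103 in young and 0.0214 in aged aorta). These signs depended on scaling. The young and aged medians were 0.0028 and -0.0141 with a second quantile normalization, and -0.00855 and -0.0263 with median centring.

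**Figure D3:**
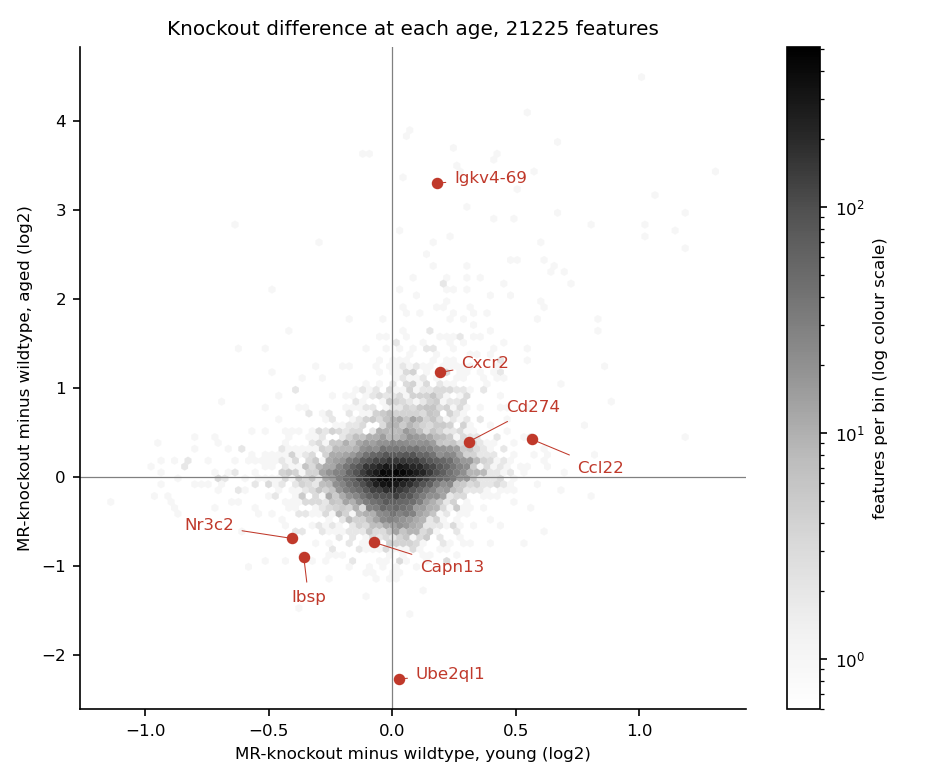
Knockout difference (log2) in young aorta on the horizontal axis and in aged aorta on the vertical axis for 21225 features, binned by density with a log colour scale; red points are named genes. The vertical spread (SD 0.285) exceeds the horizontal spread (SD 0.128), and Cd274, Ccl22, Nr3c2 and Ibsp lie off both axes while Ube2ql1 and Igkv4-69 lie near the vertical axis.

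No feature passed at an adjusted p under 0.05 in young aorta (0%), with 549 (2.59%) at an unadjusted p under 0.05. In aged aorta 12 passed (0.0565%), 8 higher and 4 lower, with 3744 (17.6%) at an unadjusted p under 0.05. None of the 12 passed when the 7 aged arrays were fitted alone, which gave 0 calls. These counts use 1 spread shared by all groups, though the median gene SD was 0.148 in aged MR-knockout and 0.096 in young MR-knockout arrays. Fitted alone, the young arrays gave 971 features at an unadjusted p under 0.05 and the aged arrays 2577, so the ages were less far apart. The difference of the 2 effects passed for 0 features (0%), with a smallest adjusted p of 0.0843 for Ube2ql1 and 1723 (8.12%) at an unadjusted p under 0.05. Ube2ql1 (Entrez 76980), related to ubiquitin-conjugating enzymes, shows how the average can join unlike ages. It read 5.99, 5.79 and 5.88 in young MR-knockout aorta, against 6.12, 5.69 and 5.76 in young wildtype aorta, and 5.16, 5.56 and 5.32 in aged MR-knockout aorta, against 7.48, 8.25, 7.58 and 7.18 in aged wildtype aorta. The young difference was 0.03 and the aged -2.28, so the average of -1.12 (SE 0.15, adjusted p = 0.0819) describes neither age.

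Capn13, a calpain, and Slc1a4, a neutral amino acid transporter, were alike in this. Capn13 had -0.07 in young and -0.74 in aged aorta, for an average of -0.41 (SE 0.07, adjusted p = 0.126). Slc1a4 had 0.03 in young and -0.59 in aged aorta, for an average of -0.28 (SE 0.06, adjusted p = 0.325). Hspa8, a constitutive chaperone, was apart in opposite directions: 10.42, 10.52 and 10.54 in young MR-knockout against 10.76, 10.78 and 10.84 in young wildtype aorta, and 11.88, 12.45 and 11.06 in aged MR-knockout against 10.64, 10.31, 10.60 and 10.68 in aged wildtype aorta. Its average was 0.47 (SE 0.17, adjusted p = 0.384), and the test between ages gave an unadjusted p of 0.000585 and an adjusted p of 0.609.

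Genes of the contractile apparatus leaned lower without passing the test. All 32 measured members read lower in the average, with a median of -0.22, against 0.01 over all features, from -0.01 in young and -0.41 in aged aorta. With all arrays, unadjusted p-values under 0.05 were found for 4 (Ldb3 -0.33, Mylk -0.22, Tpm2 -0.33 and Actg2 -0.54), beside 4.11% of all features. Mylk, the myosin light chain kinase that triggers contraction, read 9.69, 9.77 and 9.71 in young MR-knockout aorta, against 9.76, 9.80 and 9.88 in young wildtype aorta, and 9.83, 9.34 and 9.72 in aged MR-knockout aorta, against 10.08, 9.81, 9.94 and 10.07 in aged wildtype aorta. Aged MR-knockout array 2 was the lowest of all arrays for the list, with a mean of 9.03, against 9.63 and 9.58 on the other aged knockout arrays and 9.60 to 9.94 in aged wildtype. Without that array the median was -0.11 and 31 of 32 members read lower. Unadjusted p-values under 0.05 were then found for 4, beside 3.01% of all features lower. The count depended on the arrays. It was 22 without aged MR-knockout array 1 and 17 without array 3, both with a median of -0.27, and 21 with the B lymphocyte covariate. The shares of all features that were lower in these settings were 5.58%, 7.94% and 5.77%. Aged MR-knockout array 2 also held the most liver and Schwann cell marker signal of its group, whose part in the result was not tested. The contractile list holds all 8 smooth muscle markers, which all read lower in the average, with a median of -0.21. Fewer smooth muscle cells and less RNA per cell cannot be told apart here.

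Matrix genes leaned the same way. Of 39 fibrillar collagen and cross-linking genes, 16 were lower and 0 higher at an unadjusted p under 0.05, beside 4.11% and 6.79% of all features, and the median was -0.15, from -0.01 in young and -0.28 in aged aorta. Col6a3, a chain of collagen VI, read 8.32, 8.25 and 8.48 in young MR-knockout aorta, against 8.27, 8.53 and 8.58 in young wildtype aorta, and 7.83, 7.60 and 7.72 in aged MR-knockout aorta, against 8.31, 8.11, 8.19 and 8.31 in aged wildtype aorta. The young groups overlapped and the aged groups did not, for an average of -0.31 (SE 0.07, adjusted p = 0.325). Col5a2, of the collagen V that starts fibrils, was apart at both ages, at 6.95, 6.97 and 6.98 in young MR-knockout against 7.0, 7.04 and 7.15 in young wildtype, and 6.50, 6.48 and 6.55 in aged MR-knockout against 6.80, 6.72, 6.90 and 6.80 in aged wildtype aorta. Its average was -0.20 (SE 0.05, adjusted p = 0.325). The nearest young arrays of the 2 genotypes were 6.98 and 7.0, so the separation there is narrow. The procollagen enzymes Pcolce (-0.22) and Adamts2 (-0.21) were next.

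Basement membrane and elastic fibre genes followed. Of 21 basement membrane genes, 8 were lower (38.1%, beside 4.11% of all features) and 0 higher at an unadjusted p under 0.05, with a median of -0.12; the smallest p-values belonged to Smoc1 (-0.36), Agrn, or agrin (-0.22), Col18a1 (-0.31) and Col4a2 (-0.15). Of 21 elastic fibre genes 20 read lower, with a median of -0.14 and 4 lower at an unadjusted p under 0.05, among them Adamtsl4 (-0.18), Fbln1 (-0.16), the fibrillin gene Fbn1 (-0.27) and Fbln5 (-0.30). That count of 4 was 9 without aged MR-knockout array 1, 8 without array 3 and 9 with the B lymphocyte covariate. The shares of all features that were lower in these settings were 5.58%, 7.94% and 5.77%. Matrix proteases and inhibitors had 10 lower (27.0%, beside 4.11% of all features) and 2 higher (5.41%, beside 6.79%) of 37. Fibroblast markers averaged 9.35, 9.10 and 9.37 on the aged knockout arrays, against 9.51 to 9.63 on the aged wildtype arrays, and the collagen list shares 3 genes with them. In bulk aorta fewer cells of a type and less RNA per cell cannot be told apart. Without aged MR-knockout arrays 1 and 2 the collagen median was -0.10 and the basement membrane median -0.14. Without young MR-knockout array 3 too, these medians were -0.11 and -0.13.

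**Figure D4:**
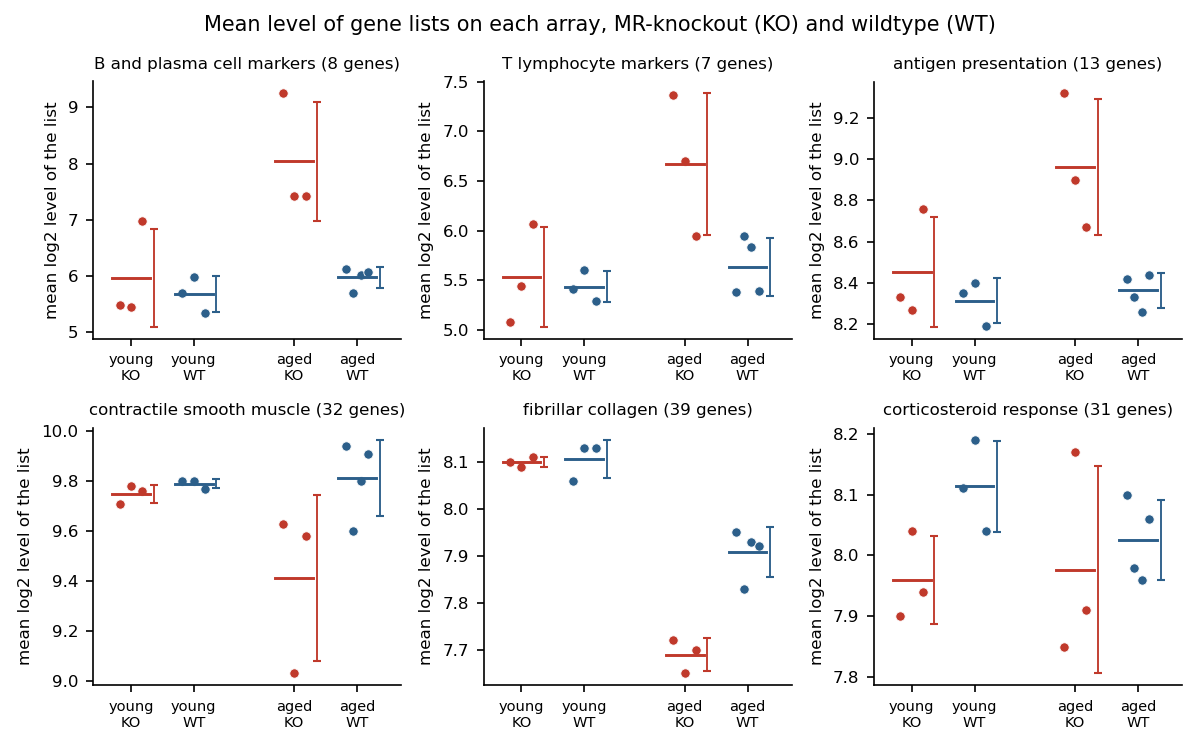
Mean log2 level of 6 gene lists on each array; points are arrays, horizontal lines group means and vertical bars 1 SD (n = 3, 3, 3 and 4). Fibrillar collagen means do not overlap between genotypes in aged aorta, the B and plasma cell means are 7.43 to 9.25 in aged MR-knockout and 5.70 to 6.12 in aged wildtype aorta, and young MR-knockout array 3 is the highest young array for the 3 upper lists.

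Immune genes leaned higher. All 8 B lymphocyte and plasma cell markers were higher at an unadjusted p under 0.05, with a median of 1.09, beside 6.79% of all features. Jchain, the joining chain of secreted antibody, read 4.33, 4.18 and 7.23 in young MR-knockout aorta, against 4.21, 4.44 and 3.88 in young wildtype aorta, and 10.24, 8.53 and 8.19 in aged MR-knockout aorta, against 6.11, 4.91, 4.95 and 7.17 in aged wildtype aorta. The averaged difference was 2.13 (SE 0.55, adjusted p = 0.331), and in young aorta 1 array of 3 carried it. It was 1.24 without the 3 arrays with high T lymphocyte markers and 0.42 with the B lymphocyte covariate, which holds this gene. The 8 markers had a median of 0.75 without aged MR-knockout arrays 1 and 2, and of 0.58 without young MR-knockout array 3 too. T lymphocyte markers were higher for 5 of 7 with all arrays, with a median of 0.51. Without aged MR-knockout arrays 1 and 2 their median was 0.27, and without young MR-knockout array 3 too it was 0.14. Macrophage markers had 0 higher and 1 lower of 7 (14.3%, beside 4.11% of all features).

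Antigen presentation genes followed the B cell markers. Of 13 measured, 9 were higher and 0 lower at an unadjusted p under 0.05, beside 6.79% and 4.11% of all features, with a median of 0.49, from 0.19 in young and 0.75 in aged aorta. Ciita, the master regulator of class II genes, was apart at both ages, at 5.50, 5.19 and 5.86 in young MR-knockout against 5.07, 5.17 and 5.0 in young wildtype, and 7.38, 6.23 and 5.73 in aged MR-knockout against 5.35, 5.36, 5.09 and 5.44 in aged wildtype aorta. The nearest young arrays of the 2 genotypes were 5.19 and 5.17, so the separation there is narrow. The average of Ciita was 0.79 (SE 0.21, adjusted p = 0.331). H2-Eb1 (0.55), the peptide transporter Tap1 (0.64) and H2-Aa (0.59) also averaged higher. Without aged MR-knockout arrays 1 and 2 the median was 0.33, and without young MR-knockout array 3 too it was 0.21. With the B cell marker mean as covariate it was 0.04. In that fit 0 of 13 had an unadjusted p under 0.05, beside 7.4% higher and 5.77% lower of all features. That mean differs between genotypes in aged aorta, so the fit does not separate it from the genotype difference.

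Cytokine and chemokine genes had 9 higher (beside 6.79% of all features) and 1 lower (2.78%, beside 4.11%) of 36, with a median of 0.10. Cxcl13, the chemokine that gathers B cells into follicles, read 5.77, 6.13 and 8.30 in young MR-knockout aorta, against 6.44, 6.49 and 6.06 in young wildtype aorta, and 9.98, 9.76 and 8.42 in aged MR-knockout aorta, against 6.73, 7.01, 5.94 and 6.21 in aged wildtype aorta. Young MR-knockout arrays 1 and 2 lay within or below the wildtype range, so the average of 1.66 (SE 0.39, adjusted p = 0.325) is that of aged aorta and 1 young array. It was 0.78 without the 3 arrays with high T lymphocyte markers and 0.66 with the B lymphocyte covariate. Lta, lymphotoxin alpha, averaged 0.40. The median of the 36 genes was 0.04 without aged MR-knockout arrays 1 and 2, and 0.05 without young MR-knockout array 3 too. With the B lymphocyte covariate 6 were higher (16.7%, beside 7.4% of all features).

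Interferon response genes had 8 higher (beside 6.79% of all features) and 0 lower of 32, with a median of 0.12, led by Irf8 (0.94), the immunoproteasome subunits Psmb8 (0.51) and Psmb9 (0.39), and Ifi44 (0.28). Without aged MR-knockout arrays 1 and 2 the median was 0.05, and without young MR-knockout array 3 too it was 0.03. With the B lymphocyte covariate 0 of these 32 had an unadjusted p under 0.05, beside 7.4% higher and 5.77% lower of all features. Cell cycle genes had 4 higher (14.3%, beside 6.79% of all features) and 0 lower of 28 and a median of 0.28. Leaving out aged MR-knockout arrays 1, 2 or 3 in turn gave 6, 16 and 11 higher, with medians of 0.07, 0.36 and 0.37. The shares of all features that were higher in these settings were 6.96%, 5.76% and 10.7%. With the B lymphocyte covariate, which differs between genotypes in aged aorta, there were 1 higher and 5 lower with a median of -0.17. These are 3.57% and 17.9% of the list, beside 7.4% and 5.77% of all features. Their direction turned in that fit.

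Other lists had few genes past the unadjusted threshold. Oxidative phosphorylation had 0 higher and 0 lower of 30, with a median of 0.00, and lipid metabolism 0 and 0 of 27, with a median of 0.02. Complement had 0 higher and 1 lower of 20 (5%, beside 4.11% of all features). Among 21 genes tied to the vascular receptor in earlier work by others, 1 was higher (4.76%, beside 6.79% of all features), the adhesion molecule Icam1 (0.21). The 3 lower ones (14.3%, beside 4.11% of all features) included Itga5, the fibronectin receptor chain (-0.31), and Ptgs2, cyclooxygenase 2 (-0.33). Itga5 joined 0.02 in young and -0.63 in aged aorta. Oxidant and antioxidant enzymes had 4 higher of 30 (beside 6.79% of all features), among them the phagocyte oxidase subunits Ncf1 (0.45) and Ncf4 (0.45) and the GTPase Rac2 (0.92), and 1 lower, the extracellular superoxide dismutase Sod3 (-0.18). Rac2 was highest on the arrays with high T lymphocyte markers. It read 9.85 and 8.60 on aged MR-knockout arrays 1 and 2 and 8.13 on young MR-knockout array 3. Its average was 0.01 with the B lymphocyte covariate. The list median was -0.01 with all arrays and -0.03 without aged MR-knockout arrays 1 and 2. With the covariate 1 gene was higher (3.33%, beside 7.4% of all features).

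**Figure D5:**
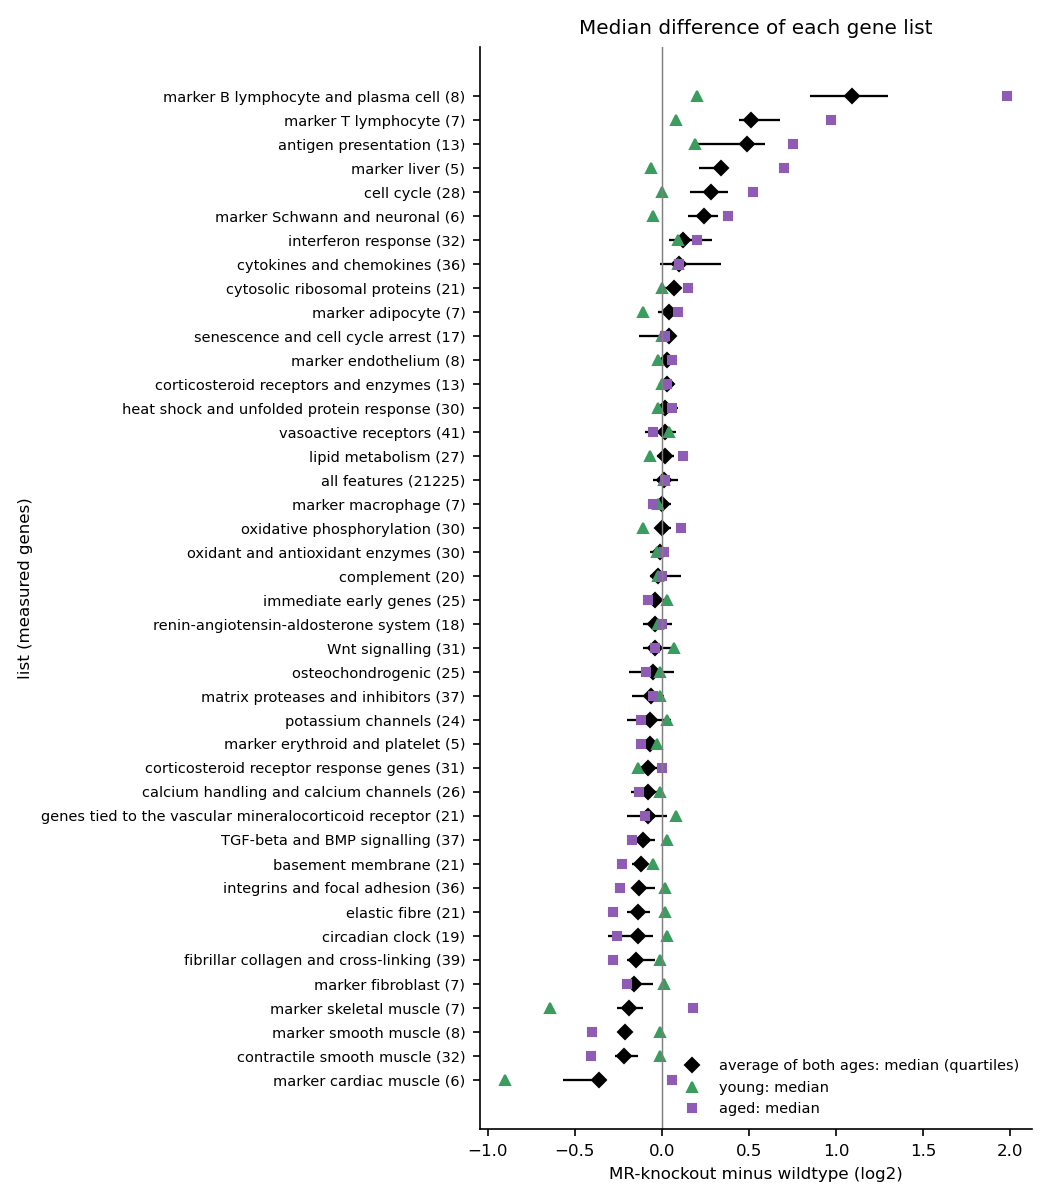
Median MR-knockout minus wildtype difference (log2) of each gene list with at least 5 measured members; diamonds are the average of both ages with lines across the quartiles of its genes, triangles young and squares aged aorta. Aged medians lie farther from 0 than young medians for the B lymphocyte markers (1.09 in the average), antigen presentation (0.49), contractile genes (-0.22) and fibrillar collagen (-0.15), and the median of all features is 0.01.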

How the data were processed

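Biotin-labelled RNA of mouse aorta was hybridised to 13 arrays; extraction used QIAzol and then a column, per the labels. The authors deposited log2 values from RMA (background correction, quantile normalization and probe summary), with affy and limma also named, per the submitters' processing notes. The sources used here do not give their versions, the array platform, the probe definition or the build. A second deposited table holds the same log2 values rounded (largest gap 0.005). The workbook's numeric columns were entered as other in the unit table because their headers are numbers, and they hold log2 values. The authors' fold and p-value columns were not used. Of 21225 features, 20768 matched the RefSeq gene table of GRCm38.p6 by Entrez ID, 2545 symbols were updated and 457 kept the deposited name.

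One limma 3.58.1 model (R 4.3.3, lmFit and eBayes, two-sided) had a coefficient per group, with 9 residual and 3.41 prior degrees of freedom and Benjamini-Hochberg adjustment over all 21225 features of a contrast. A feature was called at an adjusted p under 0.05. Array number limits precision. Groups came from the genotype and developmental stage labels, and replicate numbers follow accession order. The title letter differs between ages and not within them, so it does not enter a within-age difference. No arrays held identical values (0 pairs). The text names, per direction, the 12 features with the smallest p, without odorant or vomeronasal receptors, small RNAs (microRNA, nucleolar) and names that stand for clones or predictions, up to 4 members of each of 42 lists by smallest p, 10 receptor and response genes, the 6 named genes with the smallest p between ages, and the 10 most separated features per direction. Some genes that meet this rule are not reported here. The contrast, lists and naming rule were chosen with earlier results of these data known. The model was tested on simulated data. Alternatives were each array left out, arrays with high T lymphocyte markers left out, array weights, another prior, other scalings and a filter. The rounded table, covariates, an additive model and one without age were also used. Counts of lists and values of some immune genes under the alternatives were added after seeing the data.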

Additional observations from a re-analysis of the deposited data

Results flagged for a closer look

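In 46 checks of named genes and marker lists on the 4 aged wildtype arrays, 7 had 1 array far from the other 3; chance gives about 1 in 20 of such groups. The other groups hold 3 arrays and were not checked. Ccl22 read 3.29 on replicate 4, against 3.74 to 3.77 on the others, which lies farther from the aged MR-knockout values than the rest. Igkv6-13 read 3.30 on replicate 3, against 2.77 to 2.83, still below every aged MR-knockout array. Slc39a4 read 4.83 on replicate 1, against 4.54 to 4.59, Mmp16 read 5.96 on replicate 2, against 6.14 to 6.16, and Slc1a4 read 6.80 on replicate 2, against 6.93 to 6.95, each nearer the knockout values than the other wildtype arrays. Tsc22d3 read 7.69 on replicate 3, against 7.88 to 7.91. The liver marker mean was 5.31 on replicate 3, against 4.0 to 4.21 on the others, and aged MR-knockout array 2 was higher still at 6.84.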

How the results depend on the processing

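The averaged effect gave 0 calls with all arrays and 0 to 292 with 1 array left out. It gave 292 without aged MR-knockout replicate 3 (1.38% of features, 22 of the 24 named genes among them), 2 without aged wildtype replicate 2 (Ube2ql1 and Ibsp) and 1 without aged wildtype replicate 4 (Ube2ql1). Array weights gave 4, Ube2ql1, Ibsp, Igkv4-69 and Snord53, named after their values were seen. Leaving out aged MR-knockout arrays 1 and 2 gave 1, as did leaving out young MR-knockout array 3 as well; the lone aged MR-knockout array is then assumed to vary like the other groups. The trend and robust prior, a second quantile normalization, median centring, a filter on dim features (14150 tested), the rounded table, both covariates and the additive and genotype-only models gave 0 each. None of the 24 named genes changed sign in any of these settings in which it was tested. The filter on dim features left some of them out, Ibsp and Kynu among them, so their sign was not tested there. With the B lymphocyte covariate 4 of the 12 higher genes, Il21r, Kynu and H2-Oa among them, read under 0.5 times their averaged value, and 10 of 12 higher and 12 of 12 lower genes had an unadjusted p under 0.05. The aged effect gave 12 calls with all arrays, 0 from the 7 aged arrays alone, and 3 to 1442 with 1 aged array left out (3 without aged wildtype replicate 1, 196 without replicate 2 and 6 without replicate 3; 89, 26 and 1442 without aged MR-knockout replicates 1, 2 and 3). Without young MR-knockout replicate 3 it gave 89. The young effect gave 0 in all settings, and the difference between ages 0 to 16 with 1 array left out (16 without aged MR-knockout replicate 3, 1 without aged wildtype replicate 2 and 1 without replicate 4) and 1 with array weights. The causes were not tested. Nr3c2 ranged from -0.62 to -0.50 with 1 array left out, with exact permutation p of 0.00286 to 0.005. The count separated at both ages was 295 (1.39%) without aged MR-knockout arrays 1 and 2 and 707 (3.33%) without young array 3 too; fewer arrays separate more easily by construction. Scaling moved the median averaged difference of all features from 0.0135 to -0.00786 with a second quantile normalization and to -0.0198 with median centring. Its sign thus depended on the scaling. No paired analysis was possible because the replicate numbers follow accession order, the numbers in the titles differ on every array, and no label says that any of them mark shared litters or days.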

Other observations

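Mir155, a microRNA gene named after its values were seen, had an averaged difference of 0.04 (limma adjusted p = 0.804). Schwann and neuronal markers averaged 7.24 on aged MR-knockout array 2, against 5.89 and 5.90 on the other aged MR-knockout arrays and 5.73 to 6.16 on the aged wildtype arrays. Cardiac muscle markers averaged 6.21 to 8.20 in young MR-knockout and 6.11 to 9.24 in young wildtype aorta, and the ranges overlapped. Timp4, a metalloprotease inhibitor named after its values were seen, had a young difference of -0.67 and an aged difference of -0.04, and the test between ages gave a limma adjusted p of 0.609.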
